A study of Homo sapiens with 32 samples.

Results

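Described here are 45 genes of homologous recombination and of the Fanconi anaemia pathway, which are 45 of the 48804 genes listed in the count table. They were chosen by name, with no threshold on a measured value but with earlier results of these data known. Each symbol was matched to 1 Ensembl identifier of the table. By role they fall into 7 groups: BRCA1, BRCA2 and their direct partners (5 genes), the strand exchange factors (9), end resection and the dissolution of joined DNA molecules (9), the checkpoint kinases and their mediators (6), the Fanconi core complex (8), the Fanconi ID complex with its ubiquitin-transferring enzyme (3), and the BRCA1-A complex together with the mismatch recognition protein MSH6 (5).

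Homologous recombination mends a break through both strands of DNA by copying the intact sister molecule. MRE11, RAD50, NBN, RBBP8 (CtIP) and EXO1 trim the broken ends, BRCA1 with BARD1 and PALB2 brings in BRCA2, which prepares the trimmed strand to pair with the sister. The Fanconi proteins act where the strands are crosslinked: a core complex attaches ubiquitin to FANCD2 and FANCI, which starts the removal of the crosslink. Many of these genes are transcribed mostly in cells that are copying their DNA, and inherited loss of BRCA1 or BRCA2 predisposes to breast cancer.

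MDA-MB-468 is an established human cell line of triple-negative breast cancer, a cancer without the estrogen and progesterone receptors and without amplified ERBB2. Cultures received PBS (control), 0.5 µM Sal (salinomycin, a potassium ionophore), 15 µM Das (dasatinib, an inhibitor of Src and ABL kinases), or both drugs together (S + D, for which the labels give the sum of 15.5 µM). RNA was sequenced after 24 or 72 h, which gives 8 conditions with 4 biological replicates apiece, or 32 libraries. All conditions are of this 1 cell line, grown as cultures in flasks, and the comparisons ask how each drug and the combination altered the transcripts of the untreated cells at either time.

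Library totals ran from 25692561 to 42769687 counts (median 33301486.5). Epithelial EPCAM lay between 206 and 393 CPM (a gene's counts after every library is brought to the same size, with edgeR's TMM factors) in every library, and EGFR, amplified in this line, between 2793 and 5923 CPM. ESR1 lay between 3.64 and 11.97 CPM, ERBB2 between 56.8 and 192 CPM, and PGR never had more than 3 counts. Of markers of other cells, PTPRC had at most 5 counts, CD3E 2, CD68 7, CDH5 36 and COL1A2 1, PDGFRB reached 2.22 CPM, and COL1A1 lay between 18.2 and 120.0 CPM. In each condition 3 libraries are numbered and 1 carries no number. The unnumbered libraries differed from their condition means in a like way, with correlations of these differences across genes of 0.613 to 0.691 for the 6 pairs at 24 h and 0.532 to 0.626 at 72 h (genes are not independent replicates). Das replicate 3 of 72 h stood apart from the other Das libraries of its time. It was the highest of the 4 for 35 of the 45 members, and the counts for Das at 72 h are given with and without it. The library was singled out by the members' own values. Leaving out a high library tends to deepen falls and narrow the spread, so p-values without it are no support for a fall.

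In the 24 h control, the mean level of the members per kilobase of their canonical transcript ran from 85.0 CPM per kb for UBE2T, the enzyme that passes ubiquitin to FANCD2 and FANCI, to 0.809 CPM per kb for RAD51D, a strand exchange factor. FANCG, a scaffold of the Fanconi core complex, followed UBE2T with 68.0 CPM per kb, then came BRCC3, a deubiquitinase of the BRCA1-A complex, with 59.3, and MSH6, a mismatch recognition protein, with 52.9. BRCA1 held 12.5 CPM per kb, BRCA2 4.70 and the kinase ATM 4.30. Apart from RAD51D, the lowest were FANCB with 1.52 CPM per kb and RAD51B with 1.68 CPM per kb. In the control, 0 members were lower and 0 higher at 72 h than at 24 h by the quasi-likelihood test of edgeR. Of all 17227 genes tested over the 32 libraries, 0.760% were lower and 2.00% higher. An unadjusted p under 0.05 was reached by 10 members and by 3632 of the 17227 genes, and 1 member was called lower by DESeq2. With the 8 control libraries alone in the fit 7 members were lower. No share of all genes is given for that fit, or for counts by DESeq2 here and below. Such counts are therefore no result about the members. In the numbered libraries 3 were lower and 1 higher, where 4.01% and 7.02% of all genes were.

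Because many members fell together, the stretch around their start sites is shown for 4 of those with large falls (BRIP1, RAD54L, EXO1, FANCD2), for BRCA1, for ATM, which rose, and for RAD50, which did not pass the test in any treatment over all 4 libraries. Each line holds 250 bases before and 50 after an annotated start, taken from RefSeq promoter windows of GRCh38.p14 and placed in GRCh37, the build of the files, by an exact match over all 300 bases. The sequences read 5′ to 3′ on the strand of the gene, with coordinates of GRCh37. Capitals mark exact matches, on either strand, to 3 motifs tied to cell cycle genes: the E2F site (TTTCCCGC, TTTGGCGC, TTTCGCGC or TTTGCCGC), the CHR element (TTTGAA) and the CCAAT box (CCAAT).
BRIP1, chr17:59940840-59941139, minus strand: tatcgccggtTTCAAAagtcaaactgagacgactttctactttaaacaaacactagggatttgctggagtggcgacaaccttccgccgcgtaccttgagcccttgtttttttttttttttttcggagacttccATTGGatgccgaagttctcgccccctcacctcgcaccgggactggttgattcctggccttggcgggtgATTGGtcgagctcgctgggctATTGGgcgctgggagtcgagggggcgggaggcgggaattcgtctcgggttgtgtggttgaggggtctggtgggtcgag
RAD54L, chr1:46713185-46713484, plus strand: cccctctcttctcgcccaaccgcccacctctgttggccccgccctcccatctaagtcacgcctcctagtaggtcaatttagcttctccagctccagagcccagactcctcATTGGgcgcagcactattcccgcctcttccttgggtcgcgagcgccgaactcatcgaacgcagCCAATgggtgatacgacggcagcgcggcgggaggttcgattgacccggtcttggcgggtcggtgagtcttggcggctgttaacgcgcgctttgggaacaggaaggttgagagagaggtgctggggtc
EXO1, chr1:242011256-242011555, plus strand: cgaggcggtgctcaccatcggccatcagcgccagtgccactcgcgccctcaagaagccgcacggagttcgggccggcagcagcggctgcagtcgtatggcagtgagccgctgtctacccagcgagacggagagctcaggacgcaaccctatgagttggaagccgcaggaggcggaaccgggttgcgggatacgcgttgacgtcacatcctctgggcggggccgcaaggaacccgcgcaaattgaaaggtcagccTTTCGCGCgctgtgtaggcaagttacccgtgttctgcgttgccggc
FANCD2, chr3:10067871-10068170, plus strand: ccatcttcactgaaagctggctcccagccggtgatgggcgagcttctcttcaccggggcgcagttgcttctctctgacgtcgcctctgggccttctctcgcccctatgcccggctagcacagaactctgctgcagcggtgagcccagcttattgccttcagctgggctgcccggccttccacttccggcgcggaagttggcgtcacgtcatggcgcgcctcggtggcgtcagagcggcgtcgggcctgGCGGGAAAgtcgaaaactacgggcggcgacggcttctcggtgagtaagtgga
BRCA1, chr17:41277332-41277631, minus strand: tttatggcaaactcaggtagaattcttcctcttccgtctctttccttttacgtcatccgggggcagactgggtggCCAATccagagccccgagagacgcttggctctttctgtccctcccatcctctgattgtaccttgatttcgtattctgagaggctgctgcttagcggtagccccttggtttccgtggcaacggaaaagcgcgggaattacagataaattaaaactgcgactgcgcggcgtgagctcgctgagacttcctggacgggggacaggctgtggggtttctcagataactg
ATM, chr11:108093544-108093843, plus strand: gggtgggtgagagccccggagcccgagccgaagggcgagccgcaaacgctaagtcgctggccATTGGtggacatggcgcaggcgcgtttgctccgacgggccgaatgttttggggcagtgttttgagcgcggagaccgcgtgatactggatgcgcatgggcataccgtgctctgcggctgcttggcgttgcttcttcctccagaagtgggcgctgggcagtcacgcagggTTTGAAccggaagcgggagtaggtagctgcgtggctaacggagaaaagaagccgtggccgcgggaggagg
RAD50, chr5:131892419-131892718, plus strand: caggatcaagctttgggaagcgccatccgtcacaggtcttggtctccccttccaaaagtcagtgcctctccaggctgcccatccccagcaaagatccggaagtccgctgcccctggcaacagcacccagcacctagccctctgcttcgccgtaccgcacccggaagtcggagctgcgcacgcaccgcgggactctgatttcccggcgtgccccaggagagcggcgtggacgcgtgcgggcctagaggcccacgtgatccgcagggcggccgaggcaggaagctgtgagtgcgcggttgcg
In the BRIP1 window CCAAT stood on the opposite strand at 3 places (first base at -117, -49 and -28 from the start). A CHR match stood there at -240, also on the opposite strand. RAD54L held CCAAT on the opposite strand at -140 and on its own strand at -77. EXO1 held an E2F match from base 5 after the start, and FANCD2 one on the opposite strand at -2. BRCA1 held a single CCAAT, ATM a CHR and a CCAAT match, and RAD50 none of the 3. The choice of windows followed no fixed rule. BLM (-3.26) and RAD51AP1 (-3.12, log2 fold changes with S + D at 72 h) fell more than FANCD2 and are not shown. Their windows hold no E2F match.

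Windows were found for 41 of the 45 members (60 windows), and RAD54B, RMI2, NBN and FANCI had none in the table. An E2F match was present in 13.3% of the members' 60 windows and in 3.31% of all 35116 windows of this length. CCAAT was present in 40% against 34.6%, CHR in 6.67% against 15.2%, and the GC box (GGGCGG, either strand), which is not capitalised above, in 71.7% against 45% of all windows. A GC box and an E2F match can share bases. By the window nearest the canonical start, the 8 members with an E2F match were XRCC2, RMI1, EXO1, TOPBP1, FANCA, FANCC, FANCD2 and MSH6. Among members with a window, E2F matches occurred in 4 of the 18 that fell past both cutoffs with S + D at 72 h (a log2 fold change beyond 1.5 in size as well as an adjusted p under 0.01), in 3 of the 12 that fell by less, and in 1 of the 11 that did not fall, TOPBP1. CCAAT occurred in 10 of 18, 5 of 12 and 3 of 11. A match describes these letters and does not show that a factor binds there.

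With S + D at 72 h, most of the recombination and Fanconi genes fell. Of the 45 members, 34 were lower and 3 higher than the control at an adjusted p under 0.01 (quasi-likelihood test of edgeR, adjusted after Benjamini and Hochberg over all genes tested, as for every adjusted p here), where 27.9% of all 16682 genes were lower and 27.0% higher. Past both cutoffs, 21 members were lower and 1 higher, against 10.5% and 9.69% of all genes. The median log2 fold change over the members was -1.13 against 0.01 over all genes. Since the list was chosen with earlier results known, these differences from all genes are a description and not a test. RNA came from whole cultures, so fewer cells expressing a gene and less RNA per cell cannot be told apart.

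Sal alone for 72 h lowered nearly as many: 32 members were lower and 3 higher, where 26.8% of all genes were lower and 26.3% higher. Past both cutoffs 11 members fell with Sal and 1 rose, against 9.45% and 9.23% of all genes, and the median of the members was -0.84. At 24 h the counts with Sal were 3 lower (FANCI, RAD51C and ATRIP) and 0 higher by edgeR, and 1 was called higher by DESeq2. The background of that comparison was 2.23% of 16357 genes lower and 4.55% higher. An unadjusted p under 0.05 was reached by 18 members and by 4594 of the 16357 genes. The count for Sal at 24 h depended on the libraries used, being 13 lower and 2 higher in the numbered libraries alone, where 10.9% and 12.7% of all genes were. It ran from 0 to 4 lower when 1 library was left out at a time, with 0 without control replicate 1 or control replicate 3.

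Das lowered 14 members at 24 h and raised 0 by edgeR, with 6.88% of all genes lower and 6.99% higher, and 1 was called higher by DESeq2. An unadjusted p under 0.05 was reached by 24 members and by 5710 of 16357 genes. The count with Das at 24 h was 23 in the numbered libraries alone, where 18.7% of all genes were lower, and 5 without Das replicate 1. S + D at 24 h lowered 24 and raised 1, ATM, with a background of 16.5% lower and 17.1% higher. At 72 h with Das, 0 members were lower and 1, ATM, higher, against 9.36% and 10.5% of all genes, and 2 were called lower by DESeq2. At an unadjusted p under 0.05 there were 21 members and 7407 of 16682 genes, a similar share. Without Das replicate 3 of 72 h, 17 members were lower and 1 higher in that comparison, against 13.2% and 14.6% of all genes, so that the count depends on this library. It also depends on the fit and the threshold, as given in the closing section. With a block for the replicate number, the counts lower at 24 h were 13, 22 and 28 for Sal, Das and S + D, where 8.71%, 14.0% and 24.5% of all genes were lower.

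The libraries were also compared directly. The number of members whose 4 treated libraries all lay below every control library of the same time was 14, 22 and 28 for Sal, Das and S + D at 24 h, where 11.2%, 15.7% and 24.0% of all genes tested lay so. At 72 h the numbers were 30, 4 and 34, where 29.6%, 14.7% and 30.9% of all genes lay so. The number with all 4 above every control was 2, 0 and 1 at 24 h, against 11.3%, 13.7% and 22.6% of all genes, and 4, 1 and 4 at 72 h, against 30.0%, 14.0% and 30.3%.

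Some calls of single genes were lost under at least 1 alternative setting. With S + D at 72 h these were BRCC3 and UIMC1, 2 of the 37 members called. With Sal at 72 h they were 8 of the 35 called, ATRIP, BRCA2, FANCF, FANCL, FANCM, NBN, TOPBP1 and UBE2T. At 24 h they were 4 of 25 with S + D (CHEK1, FANCB, FANCC and XRCC3), 9 of 14 with Das and all 3 with Sal. The labels call the 4 libraries of a condition biological replicates but do not say how the cultures were kept apart, so the p-values measure the spread between these libraries.

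**Figure D1:**
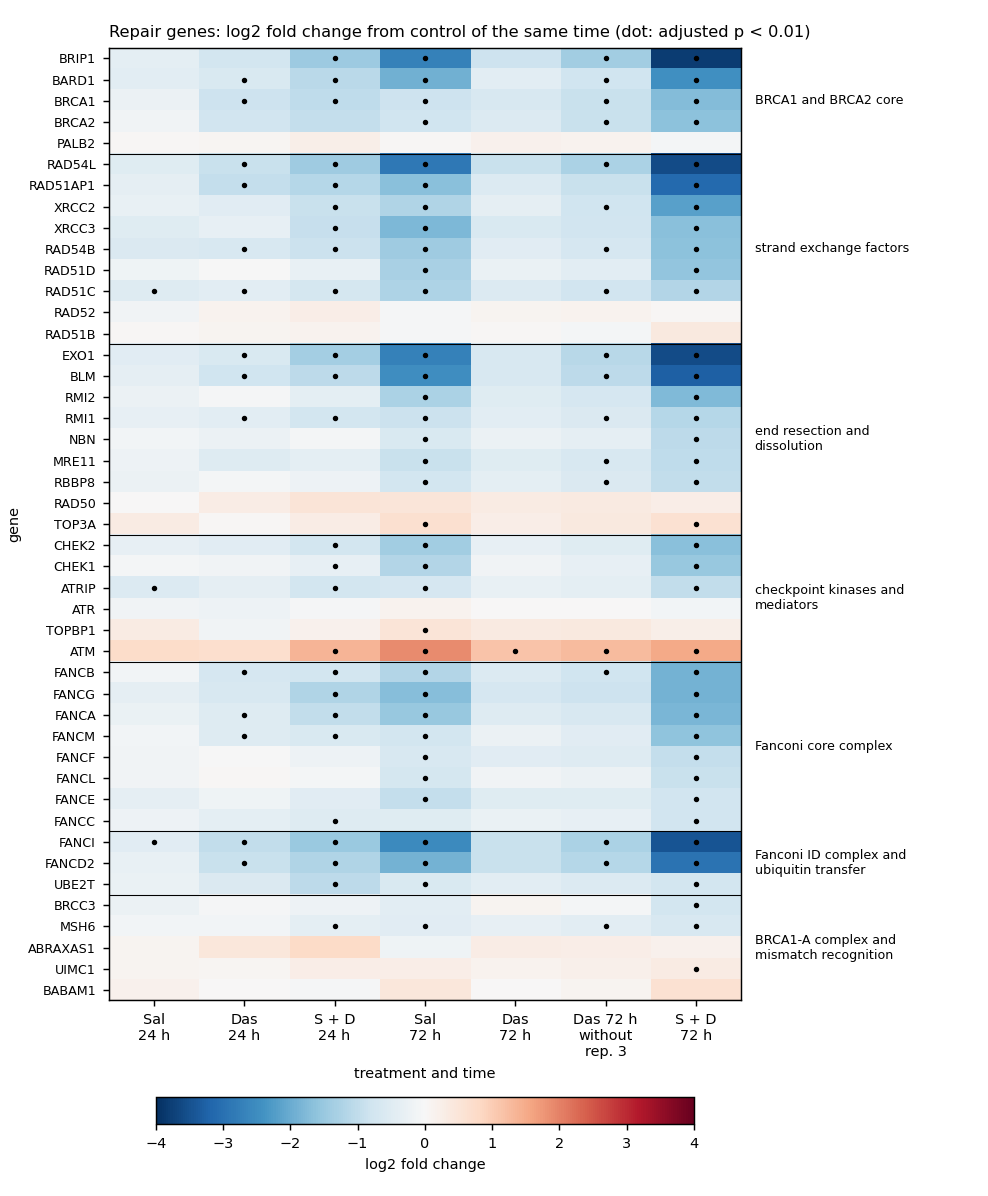
Heat map of the log2 fold change against the control of the same time for the 45 members, ordered by role, with a column per treatment and time and an added column for Das at 72 h without replicate 3; dots mark an adjusted p under 0.01. The Sal and S + D columns of 72 h hold 32 and 34 members marked as lower, and the column of Das at 72 h gains 17 marked as lower once replicate 3 is left out.

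BRCA1 (ENSG00000012048, chr17:41196312-41322262, minus strand), a ubiquitin ligase that directs broken ends to recombination, had 62.4, 58.6, 56.2 and 63.6 CPM in the control libraries of 72 h (replicates 1, 2, 3 and the unnumbered library, in this order throughout). With S + D at 72 h it had 15.5, 18.8, 18.5 and 19.8 CPM, with Sal 29.3, 34.5, 30.9 and 41.3 CPM and with Das 29.1, 32.03, 58.2 and 35.6 CPM. All S + D and Sal libraries lay below every control, S + D also below every Sal library, while Das replicate 3 lay within the control range. BRCA1 fell with S + D (log2 fold change -1.75, standard error 0.18, adjusted p = 3.37e-07) and with Sal (log2 fold change -0.84, standard error 0.18, adjusted p = 0.000517). With Das it did not pass the threshold over 4 libraries (log2 fold change -0.64, standard error 0.18, adjusted p = 0.0103). It passed without replicate 3, a library left out for its high values (log2 fold change -0.89, standard error 0.13, adjusted p = 4.23e-05). At 24 h, the controls had 95.7, 90.5, 89.3 and 77.97 CPM, Sal 78.4, 86.8, 77.2 and 58.8, Das 47.9, 52.8, 51.0 and 43.2 and S + D 40.2, 44.1, 42.8 and 42.0. Every Das and S + D library of 24 h was below every control, and BRCA1 fell with both (-0.84 and -1.03 on the log2 scale, adjusted p = 6.24e-05 and 2.77e-06), whereas with Sal its log2 fold change was -0.24 (adjusted p = 0.182).

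BRCA2 (ENSG00000139618, chr13:32889223-32974405, plus strand), which prepares the trimmed strand for pairing, had 49.6, 44.1, 39.2 and 41.3 CPM in the controls and 8.87, 16.7, 17.1 and 13.2 CPM with S + D at 72 h. With Sal it had 23.9, 27.0, 27.8 and 22.7 CPM and with Das 22.6, 25.4, 49.5 and 22.0 CPM. S + D and Sal did not overlap the controls, and of the Das libraries replicate 3 alone reached the level of the controls. BRCA2 fell with S + D (log2 fold change -1.66, standard error 0.24, adjusted p = 1.11e-05) and by less with Sal (log2 fold change -0.80, standard error 0.23, adjusted p = 0.00662), a call that was lost under some alternatives. With Das it did not pass over 4 libraries (log2 fold change -0.55, standard error 0.23, adjusted p = 0.078) and passed without the high replicate 3 (log2 fold change -0.89, standard error 0.18, adjusted p = 0.000855). At 24 h its log2 fold change was -0.78 with Das and -0.96 with S + D, neither past the threshold (adjusted p = 0.0586 and 0.0115).

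BRIP1 (ENSG00000136492, chr17:59756500-59940920, minus strand), the helicase that binds BRCA1, showed the largest fall of all members with S + D at 72 h. It had 31.4, 26.0, 25.0 and 23.5 CPM in the controls. It had 3.05, 3.82, 3.44 and 5.92 CPM with Sal and 1.60, 1.86, 1.61 and 2.53 CPM with S + D (log2 fold change -3.81, standard error 0.35, adjusted p = 9.5e-08, a level 14-fold lower). Das gave 8.58, 9.79, 29.1 and 11.8 CPM, of which replicate 3 lay far above the others. The log2 fold change with Das was -0.84 over 4 libraries (adjusted p = 0.0426) and -1.39 without it (adjusted p = 7.18e-05). BARD1, the partner that BRCA1 needs for its ligase activity, fell at 72 h, with log2 fold changes of -2.44 with S + D and -1.92 with Sal. PALB2, which bridges BRCA1 and BRCA2, stood out among these 5 genes: it had 30.2, 27.3, 25.8 and 22.8 CPM in the controls. It had 23.2, 27.3, 29.6 and 21.4 CPM with S + D, ranges that overlap (log2 fold change -0.08, standard error 0.16, adjusted p = 0.678). PALB2 did not pass the test with any treatment at either time, with log2 fold changes from -0.08 to 0.23, though it passed with S + D at 24 h once a term for the unnumbered libraries was added (adjusted p = 0.00855).

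**Figure D2:**
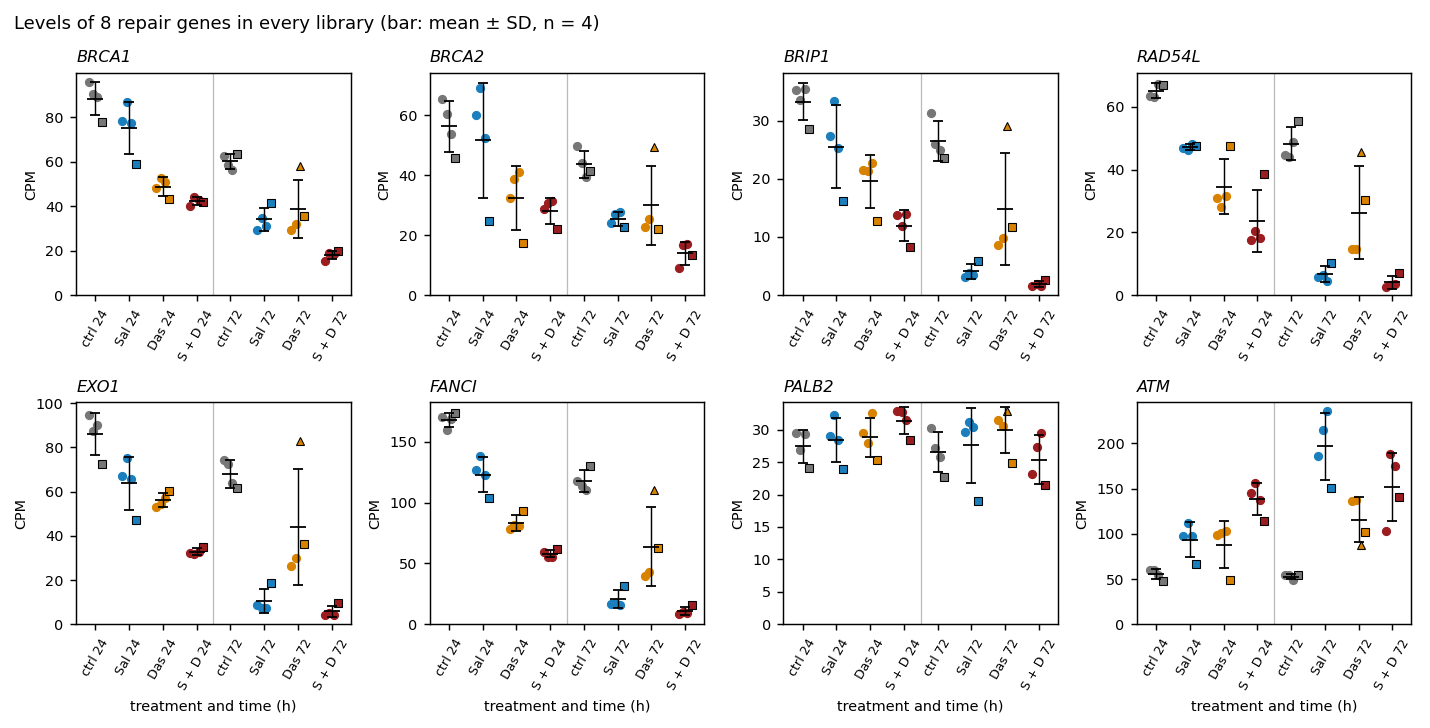
Levels (CPM, vertical axes) of BRCA1, BRCA2, BRIP1, RAD54L, EXO1, FANCI, PALB2 and ATM in each of the 32 libraries by condition, with the mean and SD of 4 libraries as bars; squares are the unnumbered libraries and the triangle is Das replicate 3 of 72 h. The S + D libraries of 72 h lie below every control of that time in BRCA1, BRCA2, BRIP1, RAD54L, EXO1 and FANCI, overlap them in PALB2 and lie above them in ATM.

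Of the 9 strand exchange factors, 7 fell with S + D and 7 with Sal at 72 h, and 6 with S + D at 24 h. Of all genes, 27.9%, 26.8% and 16.5% fell in these comparisons. RAD54L (ENSG00000085999, chr1:46712133-46744152, plus strand), a motor protein that helps the strand invade the matching molecule, had 44.8, 44.2, 48.8 and 55.4 CPM in the controls. It had 5.78, 6.34, 4.57 and 10.3 CPM with Sal and 2.59, 3.17, 3.40 and 7.10 CPM with S + D. Both treatments lay far below all controls (log2 fold change -3.58, standard error 0.39, adjusted p = 4.87e-07 with S + D and log2 fold change -2.85, standard error 0.37, adjusted p = 4.15e-06 with Sal). In Das, with 14.5, 14.8, 45.7 and 30.2 CPM, replicate 3 was again the highest (-0.88 on the log2 scale, adjusted p = 0.0585, and -1.27 without it, adjusted p = 0.0051). RAD51AP1, which stimulates the joining of the strands, fell as well (-3.12 with S + D and -1.67 with Sal on the log2 scale). In the same order, XRCC2 fell with -2.16 and -1.22, XRCC3 with -1.68 and -1.79, RAD51D with -1.57 and -1.30, RAD51C with -1.17 and -1.23, and RAD54B with -1.65 and -1.43. The first 4 of these act together in strand exchange, and RAD54B is a relative of RAD54L.

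The other two of that group, RAD51B and RAD52, did not pass the test in any treatment. RAD52, an annealing protein that human cells can largely do without while BRCA2 is intact, had 6.29, 5.82, 6.17 and 7.41 CPM in the controls. It had 5.96, 7.31, 7.10 and 6.48 CPM with S + D at 72 h (log2 fold change 0.05, standard error 0.15, adjusted p = 0.791). RAD51B, another strand exchange factor, had 3.05, 2.46, 2.31 and 3.61 CPM in the controls. It had 3.78, 3.64, 3.73 and 3.99 CPM with S + D (log2 fold change 0.39, standard error 0.21, adjusted p = 0.115). The libraries of RAD52 overlapped between the conditions, while those of RAD51B with S + D all lay just above the controls. RAD54B shares 65.5% and RAD51D 7.0% of the exon bases of the canonical transcript with a gene on the same strand, and XRCC3 34.2% and RAD54L 26.2% with another gene, so their counts are less certain where reads were split between genes.

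In the group of end resection and dissolution, 7 of 9 genes fell and 1 rose with S + D at 72 h, and the same numbers moved with Sal. Of all genes, 27.9% fell and 27.0% rose with S + D, and 26.8% and 26.3% with Sal. EXO1 (ENSG00000174371, chr1:242011269-242058450, plus strand), the exonuclease of long-range resection, had 74.2, 72.7, 63.9 and 61.5 CPM in the controls. It had 8.65, 7.41, 7.47 and 18.5 CPM with Sal and 4.19, 4.87, 4.38 and 9.60 CPM with S + D. The unnumbered library was the highest in both treatments and still lay below all controls (log2 fold change -3.57, standard error 0.39, adjusted p = 5.69e-07 with S + D and log2 fold change -2.70, standard error 0.38, adjusted p = 7.82e-06 with Sal). BLM, the helicase lost in Bloom syndrome, fell (-3.26 with S + D and -2.495 with Sal on the log2 scale). So did its dissolution partners, RMI1 (-1.13 and -0.86) and RMI2 (-1.77 and -1.28). The fourth protein of that complex, the topoisomerase TOP3A, rose: it had 31.6, 32.7, 34.3 and 37.7 CPM in the controls. It had 52.2, 44.6, 45.5 and 71.4 CPM with Sal and 44.2, 52.98, 54.7 and 58.8 CPM with S + D (log2 fold change 0.61, standard error 0.15, adjusted p = 0.00175 for S + D and log2 fold change 0.63, standard error 0.15, adjusted p = 0.0014 for Sal). All Sal and S + D libraries of TOP3A lay above every control.

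The members of the MRE11 complex, which binds broken ends first, did not move alike. With S + D at 72 h the log2 fold change was -1.03 for MRE11, the nuclease, -1.05 for NBN, which recruits ATM, and -0.98 for RBBP8, which starts resection with them, and all of these fell. RAD50 (ENSG00000113522, chr5:131891711-131982041, plus strand), the tether of the complex, had 133, 125, 117 and 101 CPM in the controls. It had 159, 198, 212 and 112 CPM with Sal and 138, 163, 166 and 108 CPM with S + D. Its log2 fold change was 0.26 with S + D (standard error 0.19, adjusted p = 0.239) and 0.50 with Sal (standard error 0.19, adjusted p = 0.0277), and it did not pass the test in any treatment. In the numbered libraries alone RAD50 was higher with Sal at 72 h (0.58 on the log2 scale, adjusted p = 0.000659) and with Das and S + D at 24 h (0.37 and 0.56, adjusted p = 0.00026 and 1.15e-06), so that its call depended on the unnumbered libraries. The S + D libraries of RAD50 at 72 h overlapped the controls.

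Of the 6 checkpoint genes, 3 fell and 1 rose with S + D at 72 h, and 3 fell and 2 rose with Sal. The shares of all genes that fell and rose were 27.9% and 27.0% with S + D, and 26.8% and 26.3% with Sal. ATM (ENSG00000149311, chr11:108093771-108239829, plus strand), the kinase that answers to broken ends, was the one member called higher in 4 of the 6 comparisons with control. At 72 h it had 54.0, 54.0, 48.4 and 54.1 CPM in the controls. There were 186, 215, 236 and 151 CPM with Sal, 136, 137, 88.0 and 101 CPM with Das and 103, 188, 175 and 141 CPM with S + D. The 3 treatments lay above all controls, and ATM rose under Sal (log2 fold change 1.89, standard error 0.19, adjusted p = 2.67e-07), under Das (log2 fold change 1.13, standard error 0.19, adjusted p = 0.000238) and under S + D (log2 fold change 1.51, standard error 0.19, adjusted p = 2.03e-06). Without Das replicate 3 its log2 fold change with Das was 1.26 (adjusted p = 5.6e-05). At 24 h it had 60.1, 59.5, 55.0 and 47.5 CPM in the controls and 145, 156, 138 and 114 CPM with S + D (log2 fold change 1.35, standard error 0.21, adjusted p = 7.66e-05), and its log2 fold change was 0.75 with Sal and 0.68 with Das (adjusted p = 0.0238 and 0.0247). The unnumbered library was the lowest of ATM with Das and with S + D at 24 h.

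ATR, the kinase that answers to stalled replication, had 71.5, 74.9, 69.1 and 75.7 CPM in the controls. It had 51.4, 76.5, 73.8 and 73.3 CPM with S + D at 72 h, which overlapped (log2 fold change -0.10, standard error 0.13, adjusted p = 0.526). ATR did not pass the test in any treatment. Its partner ATRIP fell at 72 h (-0.98 with S + D and -0.66 with Sal), though 31.6% of its exon bases are shared with a gene on the same strand. The checkpoint kinases CHEK1 (-1.51 with S + D and -1.18 with Sal) and CHEK2 (-1.68 and -1.38, on the log2 scale) fell as well. CHEK2 had 39.4, 37.8, 38.5 and 40.1 CPM in the controls. It had 10.2, 9.82, 9.96 and 19.1 CPM with S + D, where the unnumbered library was the highest and still lay below all controls. TOPBP1, the activator of ATR, had 158, 159, 143 and 133 CPM in the controls. It had 215, 234, 244 and 172 CPM with Sal, and rose with Sal (log2 fold change 0.53, standard error 0.14, adjusted p = 0.00299). With S + D its log2 fold change was 0.24 (adjusted p = 0.143). CHEK2 has pseudogene copies elsewhere in the genome, so its counts are less certain.

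All 8 genes of the Fanconi core complex fell with S + D at 72 h, 7 of 8 with Sal, and 5 of 8 with S + D at 24 h. In the same order, 27.9%, 26.8% and 16.5% of all genes fell. The log2 fold changes with S + D at 72 h were -1.82 for FANCA, -0.78 for FANCE, -0.96 for FANCF, -1.90 for FANCG, -0.90 for FANCL (the ubiquitin ligase subunit) and -1.61 for FANCM (the subunit that moves along DNA). FANCB had 4.52, 3.89, 3.75 and 4.58 CPM in the controls. It had 1.68, 1.93, 1.66 and 2.29 CPM with Sal and 0.928, 1.10, 0.925 and 1.54 CPM with S + D. No library of either treatment reached the controls (log2 fold change -1.90, standard error 0.25, adjusted p = 3.72e-06 with S + D). FANCC, the smallest change of the group, had 23.8, 24.2, 22.7 and 30.5 CPM in the controls. It had 13.6, 15.1, 13.2 and 18.8 CPM with S + D (log2 fold change -0.75, standard error 0.18, adjusted p = 0.00124), and was the one not called with Sal (-0.49, adjusted p = 0.0223). FANCA shares 27.4%, FANCL 27.3% and FANCF 9.6% of their exon bases with another gene.

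FANCI and FANCD2, the pair that receives the ubiquitin, and UBE2T all fell with Sal at 72 h and with S + D at both times. FANCI (ENSG00000140525, chr15:89787176-89860492, plus strand) had 118, 114, 110.3 and 130.4 CPM in the controls. It had 16.5, 17.7, 15.9 and 31.5 CPM with Sal, 39.5, 42.8, 111 and 62.6 CPM with Das and 8.39, 9.77, 9.57 and 15.7 CPM with S + D. It was the one gene of this complex that also fell with Sal at 24 h, where the controls had 170.1, 159.7, 169 and 174 CPM and Sal 127, 139, 123 and 104 CPM (log2 fold change -0.46, standard error 0.09, adjusted p = 0.00337). With S + D at 72 h its level was 11-fold lower (log2 fold change -3.46, standard error 0.32, adjusted p = 8.97e-08). Das replicate 3 lay within the control range, and the log2 fold change of FANCI with Das was -0.89 (adjusted p = 0.0244), or -1.28 without that library (adjusted p = 0.000536). FANCD2 fell at 72 h (-2.94 with S + D and -1.90 with Sal), and 5.1% of its exon bases are shared with another gene beside its pseudogene copies. UBE2T had 59.3, 57.6, 49.6 and 66.3 CPM in the controls. It had 39.3, 29.7, 28.0 and 43.2 CPM with S + D (log2 fold change -0.75, standard error 0.18, adjusted p = 0.00172), with all S + D libraries below the controls.

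Of the BRCA1-A complex, which trims ubiquitin chains beside a break and holds back resection, and MSH6, 2 of 5 genes fell and 1 rose with S + D at 72 h. Of all genes, 27.9% fell and 27.0% rose there. With Sal, where 26.8% of all genes fell, 1 of the 5 fell, MSH6. Its log2 fold change was -0.46 with Sal and -0.64 with S + D. BRCC3 had 147, 134, 125 and 109 CPM in the controls. It had 84.2, 81.9, 83.5 and 66.1 CPM with S + D, the unnumbered library being the lowest and all 4 below every control (log2 fold change -0.72, standard error 0.17, adjusted p = 0.00146). UIMC1 (RAP80), the ubiquitin reader of the complex, rose by a small amount, with 55.7, 59.2, 54.6 and 54.2 CPM in the controls. It had 76.2, 69.6, 69.8 and 68.8 CPM with S + D (log2 fold change 0.33, standard error 0.09, adjusted p = 0.00494), without overlap. Its scaffold ABRAXAS1 had 14.8, 14.8, 11.6 and 9.21 CPM in the controls. It had 15.5, 16.0008, 14.1 and 11.7 CPM with S + D, which overlapped (log2 fold change 0.17, standard error 0.18, adjusted p = 0.435), and BABAM1 a log2 fold change of 0.61 (adjusted p = 0.0426). In the numbered libraries alone BABAM1 was higher with S + D at 72 h (adjusted p = 0.000883), and ABRAXAS1 with Das and S + D at 24 h (adjusted p = 0.000214 and 3.36e-07). Of the exon bases, BABAM1 shares 59.9% with a gene on the same strand, ABRAXAS1 36.9% and MSH6 12.4% with another gene.

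The count for Das at 72 h depended strongly on 1 library. With that library kept, the count also moved with the fit and the threshold, as given in the closing section. In 27 members the other 3 Das libraries lay below every control, as they did in 22.8% of all genes tested, and of these 27 replicate 3 lay below the controls in 4, within their range in 17 and above them in 6. The median log2 difference from the control mean over the 45 members was -0.68 in replicate 1, -0.50 in replicate 2, 0.09 in replicate 3 and -0.38 in the unnumbered library. The 17 members called lower once replicate 3 was left out were BRIP1 (-1.39), FANCI (-1.28), RAD54L (-1.27), FANCD2 (-1.14), EXO1 (-1.12), BLM (-1.05), BRCA1 (-0.89), BRCA2 (-0.89), BARD1 (-0.80), FANCB (-0.80), XRCC2 (-0.78), RAD51C (-0.75), RAD54B (-0.67), MRE11 (-0.65), RBBP8 (-0.59), RMI1 (-0.59) and MSH6 (-0.41, all as log2 fold changes). The median over 12 proliferation markers, genes of replication and mitosis, was -1.53, -1.36, -0.06 and -0.99 in the same 4 libraries, so they were as near the controls in replicate 3 as the members were. What set this library apart was not tested. Calls made after leaving it out for its high values are not an independent test.

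The combination was also set against each drug alone at the same time. Against Sal of 24 h, S + D had 15 members lower and 0 higher by edgeR, where 7.06% of all genes were lower and 5.83% higher. An unadjusted p under 0.05 was reached by 25 members and by 5723 of 16357 genes. The largest log2 fold changes among the 15 were those of BRIP1 (-1.06), FANCI (-1.04) and RAD54L (-0.95). Against Das of 24 h, 3 were lower, EXO1 (-0.76), FANCI (-0.51) and MSH6 (-0.30, log2 scale), and 0 higher, against 4.46% and 4.03% of all genes. At an unadjusted p under 0.05 there were 19 members and 4917 of 16357 genes. These 3 calls were lost with all 32 libraries in the fit. The count lower was 6 without the unnumbered S + D library, 13 with a replicate block (11.2% of all genes) and 18, with 3 higher, in the numbered libraries alone (19.4% and 13.5%). Against Sal of 72 h the 1 member lower was BRCA1 (log2 fold change -0.91, standard error 0.18, adjusted p = 0.00479) and 0 were higher, with a background of 1.59% lower and 1.42% higher. That call was lost in 5 of the fits without 1 library and in the numbered libraries alone. Of the members 15 had an unadjusted p under 0.05, and of 16682 genes 3766. Against Das of 72 h, 27 were lower and 0 higher, against 17.7% and 14.3% of all genes, and 9 were lower past both cutoffs against 5.35%. There, 35 members and 8827 of 16682 genes had an unadjusted p under 0.05. Without Das replicate 3, 23 were lower and 0 higher there, against 13.1% and 11.5% of all genes.

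Whether S + D differed from the sum of the single responses was tested by an interaction on the log2 scale, in which 0 stands for the sum. At 24 h, 0 members were below and 0 above the sum by edgeR and 0 were called by DESeq2, where 0.0306% of all genes were below and 0% above. An unadjusted p under 0.05 was reached by 1 member (ATR) and by 1245 of 16357 genes. At 72 h the 1 member below was ATM, at -1.503 on the log2 scale (standard error 0.26, adjusted p = 0.00123), and 0 were above, against 4.09% and 3.43% of all genes. At an unadjusted p under 0.05 there were 6 members and 5558 of 16682 genes. The log2 fold changes of ATM were 1.89 for Sal, 1.13 for Das and 1.51 for both, so that the rise with both drugs was smaller than the sum of the single rises. Without Das replicate 3, 1 member was below the sum (ATM) and 1 above it (RAD51C, named after its values were seen), against 8.29% and 6.25% of all genes, and the median of the members moved from -0.044 to 0.113. All comparisons of 1 time share the same controls.

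For 17 members the response to Sal, and for 17 the response to S + D, was lower at 72 h than at 24 h, so that the fall deepened with time. As an interaction of treatment and time over all 32 libraries, the response to Sal was lower at 72 h in 17 members and higher in 1, where 13.7% of all 17227 genes were lower and 8.21% higher. The count lower was 11 without control replicate 3 or Sal replicate 2 of 24 h or any numbered Sal library of 72 h. Past both cutoffs 7 members were lower with Sal, against 5.43% of all genes. RAD54L led with a difference between the responses of -2.37 (standard error 0.44, adjusted p = 0.000138), followed by BRIP1 with -2.32, EXO1 with -2.25, BLM with -2.14 and FANCI with -2.08. ATM was the 1 member with a higher response (1.15, standard error 0.29, adjusted p = 0.00245).

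The response to S + D was lower at 72 h in 17 members and higher in 0 by edgeR, against 10.1% and 6.15% of all genes, and lower past both cutoffs in 7 against 3.76%. An unadjusted p under 0.05 was reached by 24 members and by 6737 of 17227 genes. BRIP1 led with -2.32 (standard error 0.41, adjusted p = 0.000142), followed by BLM with -2.18, EXO1 with -2.17 and RAD54L with -2.10. BRCA1 and BRCA2 were not among the 17 called: for BRCA1 the responses to S + D differed by -0.67 (adjusted p = 0.0195) and for BRCA2 by -0.64 (adjusted p = 0.216). With Das, 0 members had a response that differed in either direction by edgeR and 0 were called by DESeq2, where 0.174% of all genes were lower and 0.0522% higher. Of the members 2 had an unadjusted p under 0.05, and of 17227 genes 2451. Without Das replicate 3 of 72 h the counts called by edgeR were 0 as well, against 0.876% and 0.882% of all genes.

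**Figure D3:**
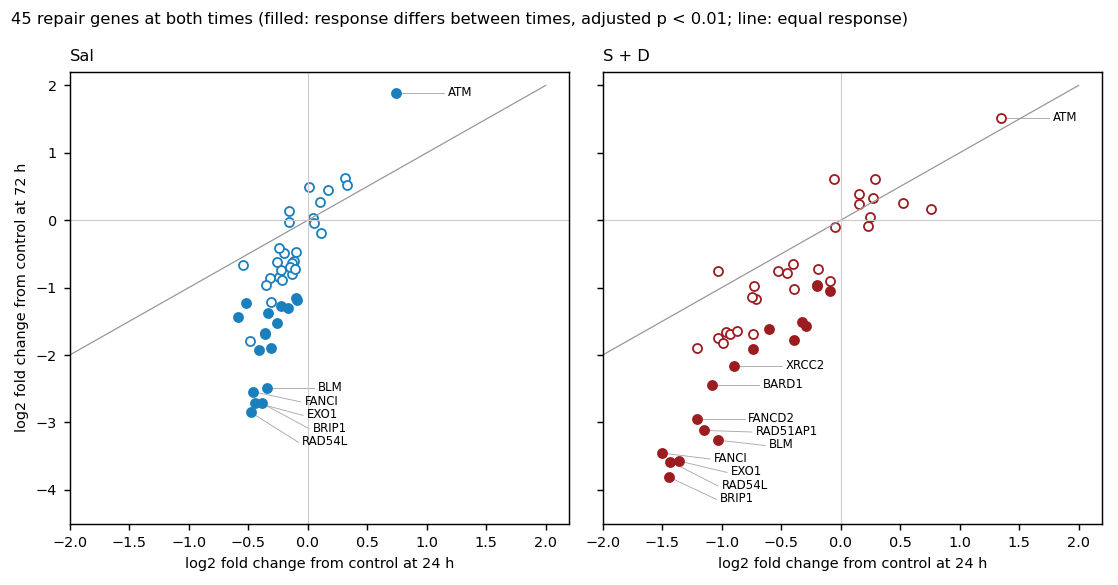
Log2 fold change against the control at 24 h (horizontal axis) and at 72 h (vertical axis) for the 45 members with Sal and with S + D; filled points are members whose responses differed between the times at an adjusted p under 0.01, and the line marks equal values. With either treatment 17 filled points lie below the line, with RAD54L, BRIP1 and EXO1 near the bottom, and ATM is the 1 filled point above it with Sal.

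The rest of the pathway was counted in the same way. Of 41 further genes of homologous recombination and Fanconi repair, 20 fell and 5 rose with S + D at 72 h (median log2 fold change -0.56), and 17 fell and 4 rose with Sal (median -0.46). Of all genes, 27.9% fell and 27.0% rose with S + D, and 26.8% and 26.3% with Sal. SWI5, a cofactor of strand exchange, had the largest rise of the list with S + D at 72 h (log2 fold change 1.08, standard error 0.14, adjusted p = 2.37e-06). The other 4 that rose with S + D, named after their values were seen, were FAN1 (1.07), TP53BP1 (0.94), ERCC1 (0.59) and MUS81 (0.52), and with Sal the 4 were SWI5 (1.14), TP53BP1 (1.23), FAN1 (0.97) and ERCC1 (0.68). DMC1, the recombinase of meiosis, had 18, 21, 26 and 19 counts in the controls and 0 in all 4 S + D libraries, and was at least 6.87-fold lower against a floor of 3 counts per library.

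Of the genes of end joining, which reseals breaks without a template, 4 of the 9 tested fell with S + D at 72 h and 0 rose (median -0.21). These were PRKDC (-1.06), DCLRE1C (-1.03), XRCC5 (-0.65) and XRCC6 (-0.35). Of 5 mismatch repair genes other than MSH6, 2 fell (MLH3 -0.54 and MSH3 -0.49) and 1 rose (PMS2 0.59). These genes, as log2 fold changes, were named after their values were seen. With S + D at 72 h, 27.9% of all genes fell and 27.0% rose.

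The 12 proliferation markers moved with the members. All 12 fell with S + D at 72 h (median log2 fold change -2.94) and with Sal (-2.51), and 4 fell with Das (MCM2, MCM5, CDC6 and PLK1), or 12 without Das replicate 3. At 24 h all 12 fell with Das (-1.11) and with S + D (-1.41). Of all genes, 27.9% fell with S + D, 26.8% with Sal and 9.36% with Das at 72 h (13.2% without Das replicate 3). At 24 h, 6.88% fell with Das and 16.5% with S + D. The part of the markers in the members' falls was not tested.

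**Figure D4:**
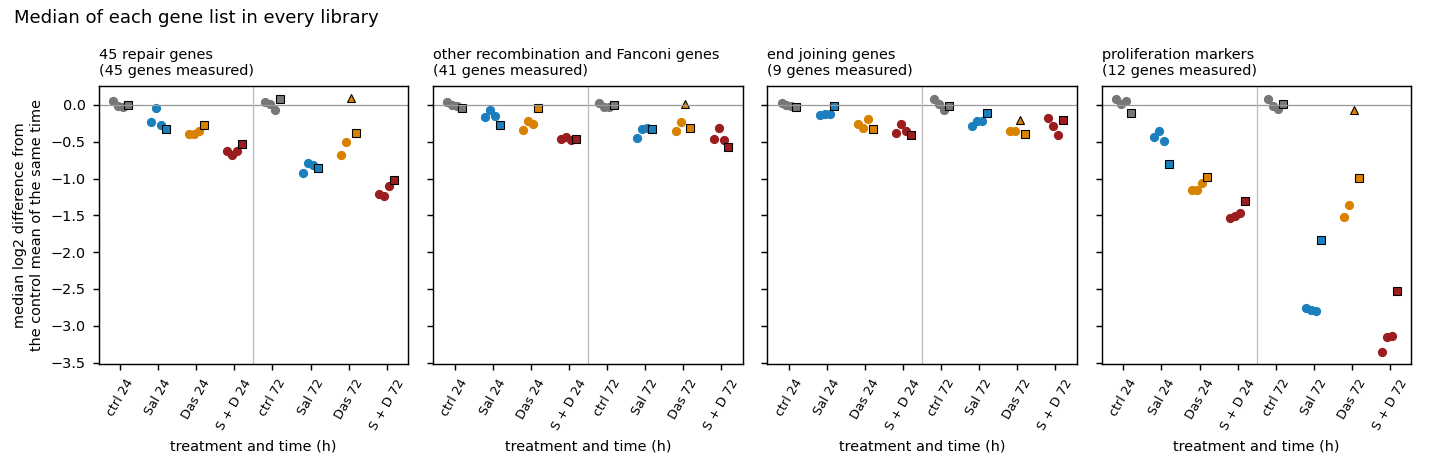
Median log2 difference from the control mean of the same time in each library for the 45 members, the other recombination and Fanconi genes, the end joining genes and the 12 proliferation markers. At 72 h the members lie between -1.23 and -1.02 in the S + D libraries and the proliferation markers between -3.35 and -2.53, and Das replicate 3 lies near 0 in both.

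Several members share a start region with a gene read from the other strand. Within 1000 bases, 18 members have 20 such neighbours, of which 13 could be tested at 72 h: 5 rose, 3 fell and 5 did not pass with S + D, 7 rose and 4 fell with Sal, and 2 rose and 1 fell with Das. Without Das replicate 3, 14 could be tested with Das, of which 2 rose and 1 fell. Of all genes, 27.0% rose and 27.9% fell with S + D, and 26.3% and 26.8% with Sal. With Das the shares were 10.5% and 9.36%, or 14.6% and 13.2% without replicate 3. Whether the neighbours differ from these shares was not tested. NBR2, a noncoding gene whose start lies 187 bases from that of BRCA1, had 4.65, 5.19, 4.95 and 5.23 CPM in the controls. It had 15.7, 18.7, 18.3 and 24.2 CPM with S + D, with no overlap, and rose (log2 fold change 1.93, standard error 0.19, adjusted p = 1.57e-07) where BRCA1 fell. The promoter line of BRCA1 above covers this start region, and the annotated span of BRCA1 runs past it, over NBR2 on the opposite strand. MOSPD2 rose beside FANCB (1.52), C12orf4 beside RAD51AP1 (0.75), ANKRD49 beside MRE11 (0.66) and SMCR8 beside TOP3A (0.92), which itself rose. SNHG31 fell beside BARD1 (-1.46), HNRNPK beside RMI1 (-0.86) and ZFYVE21 beside XRCC3 (-0.67).

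NPAT, a histone gene activator that starts 429 bases from ATM, stood at a log2 fold change of 0.25 with S + D (adjusted p = 0.155), DCTN5 beside PALB2 0.28, HSCB beside CHEK2 0.06, MTCP1 beside BRCC3 0.59 and the unnamed gene beside RMI2 -1.25, none past the threshold. ZAR1L beside BRCA2, CMC4 beside BRCC3, TEX14 and IGBP1C beside RAD51C, CRTC3-AS1 beside BLM and the unnamed genes beside ATRIP and FANCL were too low to test. Whether the counting used the strand is not stated, so reads of genes that overlap on opposite strands cannot be told apart.

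**Figure D5:**
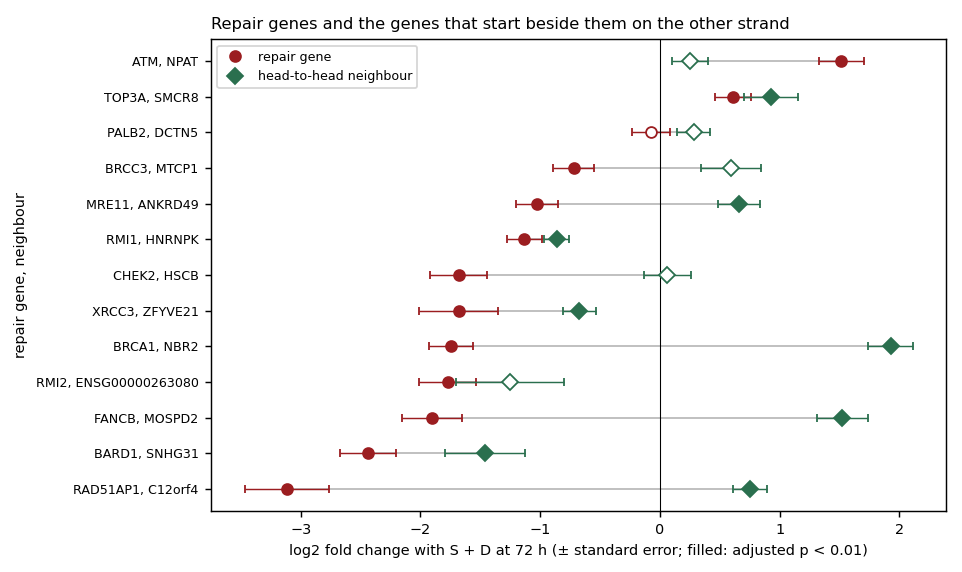
Log2 fold change with S + D at 72 h for the 13 tested pairs of a member and the neighbour that starts within 1000 bases on the other strand, with standard errors as bars. BRCA1 and NBR2 lie at -1.75 and 1.93, and FANCB and MOSPD2 at -1.90 and 1.52.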

How the data were processed

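RNA of 32 MDA-MB-468 libraries (TruSeq kit) was sequenced. The submitters' processing notes name bcl2fastq 2.19, STAR 2.5.2, Cufflinks 2.1.1, DESeq2 and GRCh37. The authors deposited raw read counts for each Ensembl gene, whole numbers that were not normalized. The counting program, its annotation and its use of strand are not given in the sources used here.

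The counts were fitted by edgeR 4.0.16 (R 4.3.3) with TMM normalization, filterByExpr (minimum count 10), a quasi-likelihood test and an adjustment after Benjamini and Hochberg over 16357 genes at 24 h, 16682 at 72 h and 17227 where times were compared. There were 16 comparisons. The 16 libraries of a time were fitted together, without a block. Levels are CPM with TMM factors, and medians by library are of log2 CPM (prior count 2). The procedure was tested on simulated data with independent libraries. These held no shared shift of the unnumbered libraries and no library set apart, so the test does not cover such features.

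The members and lists were chosen with earlier results of these data known. Given by library were BRCA1, BRCA2, the members with the largest and smallest absolute log2 fold change of each role group with S + D at 72 h (mean of at least 1 CPM in the control), and every member higher in a comparison with control. From the other recombination and Fanconi genes, the planned choice was the highest and the lowest log2 fold change, with its sign, with S + D at 72 h. In the remaining lists, genes were named because they were called, after their values were seen. The neighbours that start within 1000 bases were named too. RAD51B is given by library after its values were seen. Some genes of these pathways are not reported here. Alternatives were other normalizations, no filter, DESeq2 1.42.0, other cutoffs, a replicate block, a term for the unnumbered libraries, the numbered libraries only, other sets of libraries in the fit and each library left out in turn.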

Additional observations from a re-analysis of the deposited data

Results flagged for a closer look

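In 160 groups of 4 libraries (20 named members in 8 conditions), 1 library lay apart from the other 3 by Dixon's 95% criterion in 26, where chance flags about 1 in 20 groups. In 21 of the 26 it was the unnumbered library, so the groups do not give independent flags. At 24 h the unnumbered library was the lower one for BRIP1 with Das 24 h (12.77 CPM, the others 21.3 to 22.7), RAD50 with S + D 24 h (108.8 CPM, the others 162 to 169) and ATM with Das 24 h (48.86 CPM, the others 98.8 to 104). At 72 h the unnumbered library was the lower one for PALB2 with Sal 72 h (19.03 CPM, the others 29.7 to 31.2), BRCC3 with S + D 72 h (66.13 CPM, the others 81.9 to 84.2), ABRAXAS1 with Das 72 h (10.95 CPM, the others 17.1 to 17.2) and UIMC1 with Sal 72 h (59.64 CPM, the others 70.8 to 72.4). At 24 h the unnumbered library was the higher one for RAD54L with S + D 24 h (38.53 CPM, the others 17.5 to 20.4), CHEK2 with Das 24 h (44.9 CPM, the others 27.8 to 28.3), CHEK2 with S + D 24 h (33.49 CPM, the others 24.1 to 24.7) and FANCC in the control of 24 h (36.14 CPM, the others 27.5 to 28.9). At 24 h the unnumbered library also was the higher one for UBE2T with Sal 24 h (74.37 CPM, the others 57.7 to 59.8), UBE2T with Das 24 h (73.84 CPM, the others 39.6 to 41.9), UBE2T with S + D 24 h (49.08 CPM, the others 30.0 to 32.9) and UIMC1 with Das 24 h (60.9 CPM, the others 48.9 to 50.0). At 24 h the unnumbered library also was the higher one for UIMC1 with S + D 24 h (66.98 CPM, the others 55.2 to 56.6). At 72 h the unnumbered library was the higher one for EXO1 with Sal 72 h (18.55 CPM, the others 7.41 to 8.65), EXO1 with S + D 72 h (9.6 CPM, the others 4.19 to 4.87), CHEK2 with S + D 72 h (19.12 CPM, the others 9.82 to 10.2) and FANCI with Sal 72 h (31.51 CPM, the others 15.9 to 17.7). At 72 h the unnumbered library also was the higher one for UBE2T with Sal 72 h (50.97 CPM, the others 33.8 to 35.2). 

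Das replicate 3 of 72 h was the higher one for BRCA2 with Das 72 h (49.49 CPM, the others 22.0 to 25.4) and BRIP1 with Das 72 h (29.06 CPM, the others 8.58 to 11.8). Replicate 1 stood apart for ATR with S + D 72 h (51.42 CPM, the others 73.3 to 76.5). Replicate 3 stood apart for ATM in the control of 72 h (48.41 CPM, the others 54.0 to 54.1). Replicate 1 stood apart for UIMC1 with S + D 72 h (76.23 CPM, the others 68.8 to 69.8). What set these libraries apart was not tested.

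The responses to a treatment at 24 and 72 h differed, by the interaction of treatment and time over all 32 libraries at an adjusted p under 0.01, for 7 named members with Sal and for 5 named members with S + D. With Sal the log2 difference between the responses (72 h less 24 h) was -2.32 for BRIP1, -2.37 for RAD54L, -2.25 for EXO1, 1.15 for ATM, -1.03 for CHEK2, -1.05 for FANCB and -2.08 for FANCI. With S + D the log2 difference between the responses (72 h less 24 h) was -2.32 for BRIP1, -2.10 for RAD54L, -2.17 for EXO1, -1.12 for FANCB and -1.91 for FANCI.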

How the results depend on the processing

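No member that passed the threshold changed its direction in any of the 16 comparisons. The median of the members, near 0, changed its sign without 1 library for S + D against the sum at 72 h (-0.044, from -0.182 to 0.113) and for the Das response between times (0.065, from -0.137 to 0.148). Of 120 results for 20 members described by library, each treatment against control (43 past the threshold), 11 lost the call under at least 1 alternative, and of the 2040 values under alternatives 1871 stayed on their side of the threshold, 110 gained a call and 59 lost it. The sign differed in 28 values, all of members past the threshold in neither fit. BRCC3 with S + D at 72 h was lost only without the unnumbered S + D library of 72 h (highest adjusted p = 0.011), and FANCB with S + D at 24 h only without S + D replicate 1 (adjusted p = 0.0102). The other 9 were EXO1, FANCB and RAD54L with Das and FANCC with S + D and FANCI with Sal at 24 h, BRCA2, TOPBP1 and UBE2T with Sal and UIMC1 with S + D at 72 h (highest adjusted p from 0.0133 for TOPBP1 to 0.213 for FANCI). The cause was not tested where a count below moved. The share of all genes called moved with the setting too, for Sal at 24 h from 2.23% lower to 10.9% in the numbered libraries. A moved count is therefore not by itself a result about the members. This holds above all where no share of all genes stands beside a count below.

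At an adjusted p under 0.05, the members lower were 7 with Sal at 24 h, 12 with Das at 72 h, 9 for S + D against Das at 24 h, 6 against Sal at 72 h, 2 below the sum at 72 h, 1 in the 72 h control and 26 for the Sal response between times. Those higher at 24 h were 2, 1 and 4 for Sal, Das and S + D, 5 with Sal at 72 h, 3 for S + D against Sal and 1 against Das at 24 h, and 1 above the sum at 72 h. With the added fold cutoff, the members lower were 0 with each treatment at 24 h, 0 for S + D against either drug at 24 h and against Sal at 72 h, 9 against Das at 72 h, 11 with Sal and 21 with S + D at 72 h and 7 for either response between times. Those higher were 0 with S + D at 24 h, then 1, 0 and 1 for Sal, Das and S + D at 72 h, and 0 for the Sal response.

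The replicate numbers were not taken to pair the libraries. At 24 h libraries of the same number correlated from 0.156 to 0.364 in their deviations, but the unnumbered libraries pull every mean, and over the numbered libraries alone the medians for a shared number ran from -0.0609 to 0.00483. With a replicate block, the members lower were 13, 22 and 28 for Sal, Das and S + D, and 13 for S + D against Das at 24 h, 8 with Das, 6 for S + D against Sal and 2 below the sum at 72 h, and 2 in the 72 h control. Those higher at 24 h were 2, 2 and 4 for Sal, Das and S + D, 3 and 2 for S + D against Sal and Das, 6 with Sal, 2 with Das, 1 for S + D against Das and 1 above the sum at 72 h, and 2, 1 and 1 for the Sal, Das and S + D responses. With this block, 8.71%, 14.0% and 24.5% of all genes were lower with Sal, Das and S + D at 24 h. The shares higher were 9.97%, 13.4% and 25.7%.

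With a term for the unnumbered libraries, the members lower were 15 with Sal, 23 with Das and 13 for S + D against Das at 24 h, 6 with Das, 4 for S + D against Sal and 3 below the sum at 72 h, and 2 in the 72 h control. Those higher were 2, 3 and 5 with Sal, Das and S + D at 24 h, 4 and 2 against Sal and Das, 6 with Sal, 2 with Das, 1 against Das and 1 above the sum at 72 h, and 2, 1 and 1 for the 3 responses. In the numbered libraries only, those lower were 13 with Sal, 23 with Das, 26 and 18 for S + D against Sal and Das and 3 below the sum at 24 h, 1 with Das, 0 against Sal and 3 below the sum at 72 h, and 3 in the 72 h control. Those higher were 2, 3 and 4 with Sal, Das and S + D at 24 h, 3 and 3 against Sal and Das, 5 with Sal, 2 with Das, 1 against Das and 1 above the sum at 72 h, 1 in the 72 h control, and 2, 1 and 2 for the responses. Of all genes in the numbered libraries, 10.9%, 18.7% and 19.4% were lower with Sal, Das and S + D against Das at 24 h. In the 72 h control 4.01% were lower. For the term the shares are not given here.

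With DESeq2, 7 members were lower and 1 higher with Sal, 1 higher with Das, 2 higher with S + D and 7 lower for S + D against Das at 24 h, 2 lower with Das, 6 lower against Sal and 1 above the sum at 72 h, and 1 lower in the 72 h control. With all 32 libraries in the fit, those lower were 0 with Sal, 7 with Das and 0 for S + D against Das at 24 h, 8 with Das, 6 against Sal and 2 below the sum at 72 h, and 2 were higher with S + D at 24 h. With only the groups compared, 1 was lower with Sal, 7 for S + D against Sal and 2 higher with S + D at 24 h, 2 lower against Sal at 72 h and 7 in the 72 h control. With library totals in place of TMM, 7 were lower with Das (median -0.28) and 3 higher with S + D at 24 h, where the median of all genes moved by 0.104. Without a filter on low counts, 1 was lower with Sal at 24 h, 3 with Das and 4 for S + D against Sal at 72 h.

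Leaving out 1 library at a time, the members lower ranged from 0 to 4 with Sal, 5 to 14 with Das and 2 to 6 for S + D against Das at 24 h, 0 to 17 with Das, 0 to 3 against Sal and 1 to 2 below the sum at 72 h, and 11 to 19 for the Sal response. Those higher ranged from 0 to 1 for Sal, 0 to 1 for Das, 1 to 3 for S + D and 0 to 1 against Sal at 24 h, and 2 to 5 with Sal, 0 to 1 against Das and 0 to 1 above the sum at 72 h. The medians at 24 h ranged from -0.408 to -0.268 with Das and from -0.615 to -0.453 with S + D. With Sal at 24 h the count lower was 0 without control replicate 1 or control replicate 3 and 1 without control replicate 2, the unnumbered control or Sal replicate 3. With Das at 24 h it was 5 and 8 without Das replicates 1 and 2 and 6, 8 and 9 without control replicates 1, 2 and 3. For S + D against Das at 24 h it was 6 without the unnumbered S + D library. Das at 72 h gave 17 without Das replicate 3 and 1 without the unnumbered Das library. BRCA1 against Sal at 72 h was lost without Sal replicate 2, the unnumbered Sal library or any numbered S + D library, and 3 members were lower without the unnumbered S + D library. The Sal response had 11 lower without control replicate 3 or Sal replicate 2 of 24 h or any numbered Sal library of 72 h. The 4 libraries of a group and their counts limit what small changes could be called.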
